A study of Homo sapiens with 8 samples.

Results

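The 4 libraries labelled U937, of 8 in the series, were compared by their OGFOD1 label, within the light and the heavy pool of a sucrose gradient. Each genotype label, control or OGFOD1 OE (overexpression), had 1 light and 1 heavy library, chosen by the line, genotype and pool in their titles. U937 is a human leukaemia line of monocytic character, grown in RPMI1640 with 10% serum, and the OE label stands for a lentiviral OGFOD1 vector; what the control cells carried is given only by library names that hold the letters Scr. All 4 lysates were made with cycloheximide, which holds ribosomes on mRNA, and the RNA of the pooled fractions was sequenced with a Smart-seq kit, which keeps no strand. Fractions with 3 or more ribosomes were joined as the heavy pool, and those with disomes, monosomes or free ribonucleoproteins as the light pool. The labels name 1 library per pool and genotype and no second culture, so each group was 1 library and no test was possible. The 2 pools of a genotype also came, as far as the labels say, from the same gradient and are not replicates of each other. A gene was called higher or lower when its log2 difference, OE-labelled minus control, reached 1 in the same direction in both pools. This was asked of the 9310 genes with a mean of at least 10 CPM (reads of a gene as a share of the library, scaled between libraries by TMM) over the 4 libraries.

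mRNA loaded with several ribosomes sediments into the heavy fractions, while mRNA with few ribosomes stays in the light ones. OGFOD1 is an oxygenase that uses iron and 2-oxoglutarate to hydroxylate a proline of the ribosomal protein RPS23, in the decoding centre of the small subunit. Related oxygenases hydroxylate the hypoxia-inducible factors (HIF), which in low oxygen escape destruction and switch on genes for glycolysis, pH control and blood vessel growth. E2F factors switch on the genes of DNA replication when a cell enters S phase. In monocytic cells, leaving the cell cycle and gaining surface receptors are known parts of differentiation.

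Total counts were 52105186 to 78121157 per U937 library and 25741930 to 89373133 over the series. Mitochondrial RNA made 23.3% (control) and 20.5% (OE) of the counts of the light libraries and 0.848% and 0.941% of the heavy ones. One library of the series stood apart, the Molm13 control light library, with 2.49% mitochondrial counts against 19.8% in its OE-labelled partner; it enters the U937 comparison only through the scaling, and the counts of called genes were 400 and 309 when the scaling left it out. By genes that differ in every pair, the line labels did not separate the libraries. Of 9643 genes compared, 3 were higher by a log2 value of 1 or more in every U937 library than in its Molm13 partner and 6 in every Molm13 library, and 0 differed by 2. A difference seen in the control libraries alone is passed over by this count. NDRG1 was at 37.6 CPM (light) and 69.8 CPM (heavy) in the U937 control libraries and at 336 and 368 CPM in the Molm13 ones. CCL5 was at 71.7 and 108 CPM against 652 and 468 CPM. How many genes differed in this way was not counted. FLT3, a receptor kinase gene whose internal tandem duplication Molm13 is known for, was at 93.5 to 202 CPM in the libraries labelled U937 and at 85.3 to 170 CPM in those labelled Molm13, and the homeobox gene MEIS1 was at 23.0 to 31.3 and 16.2 to 25.7 CPM. "U937" is therefore used here as the name of a label. Defining myeloid genes were present in all 4 U937 libraries, among them the transcription factor genes SPI1 (44.3 to 195 CPM) and CEBPA (182 to 563 CPM) and the surface antigen gene CD33 (83.7 to 161 CPM).

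OGFOD1 itself went against the label: it was lower under OE. The gene (ENSG00000087263) lies on chromosome 16, 56451490 to 56479100, plus strand, of GRCh38. It stood at 49.8 CPM (light) and 60.2 CPM (heavy) under the control label and at 10.1 CPM (light) and 12.4 CPM (heavy) under the OE label. Pairs of levels below keep this order, light before heavy, and pairs of bracketed log2 differences do too. Both OE-labelled libraries lay below both control libraries. The log2 difference was -2.30 in the light pool (exact 95% limits -2.45 to -2.17) and -2.28 in the heavy pool (-2.38 to -2.18); these limits, here and below, come from the conditional binomial distribution of the 2 libraries' reads and cover counting error only. Of the named genes only MS4A3, HELLS, VAT1L and S100A8 were lower by more, ranked by the smaller difference of the pair. The count covers the exons of the gene together, so RNA from a vector and from the cell's own gene cannot be told apart, and its exons overlap those of BBS2, which was at 7.33 and 17.2 CPM in the control libraries and 7.22 and 15.5 CPM under the OE label. Each direction below therefore goes by a label that the named gene contradicts. RPS23 (ENSG00000186468), whose protein OGFOD1 hydroxylates, was at 1919 and 1507 CPM under the control label and at 3210 and 946 CPM under the OE label. It was thus higher in the light pool (0.74, 95% limits 0.73 to 0.75) and lower in the heavy pool (-0.67, -0.68 to -0.66), and by the rule it was called in neither direction. Of 25 measured genes of 2-oxoglutarate oxygenases, OGFOD1 included, OGFOD1 was the 1 called lower, and P4HA1 and KDM4B were called higher. Of all measured genes 3.36% were called lower and 4.3% higher, so these few calls are no result about the family. With 10 CPM asked of each genotype, 1 of 23 was higher and 1 lower.

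Over all genes, 400 were higher in both pools, 4.3% of those measured, and 313 were lower, 3.36%. With scaling by library totals alone the counts were 472 and 199, so that 70.3% of called genes were higher where the TMM scaling gave 56.1%; this scaling moved the median of all genes from -0.12 to -0.01. Differences in the 2 pools had the same sign for 73.5% of genes, and a single gene, ENSG00000282988, which has no symbol, was called in opposite directions (1.80 in the light pool, -1.02 in the heavy pool). Across genes the pools' differences had a Pearson correlation of 0.735 (Spearman 0.663, 9310 genes that share their libraries). The higher side reached further: 81 genes were higher by at least 2 in both pools and 9 lower, and 18 were higher by at least 3 with 0 lower. For 334 of the 400 higher genes both OE-labelled libraries lay above both control libraries, and for 212 of the 313 lower genes both lay below. Since the rule already asks for a difference in each pool, this separation follows in part from it. Its share over all genes was not counted. Genes of low level carried part of the calls, since 153 of the 400 higher genes had a mean under 10 CPM in the control libraries. On the lower side 57 of the 313 had a mean under 10 CPM in the OE-labelled libraries. In such bulk libraries, fewer cells of a kind and less RNA per cell cannot be told apart. Just inside the rule were TNFAIP8L1 (1.09 light, 1.00 heavy) and IL10RB (1.00, 1.63), and just outside were CLN3 (0.999, 1.12) and ADGRE5 (0.997, 1.30). On the lower side COPS9 (-1.59 in the light pool) and MRPL20 (-1.27) were just inside by their heavy values, and NOPCHAP1 (-1.12, -0.998) was just outside.

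**Figure D1:**
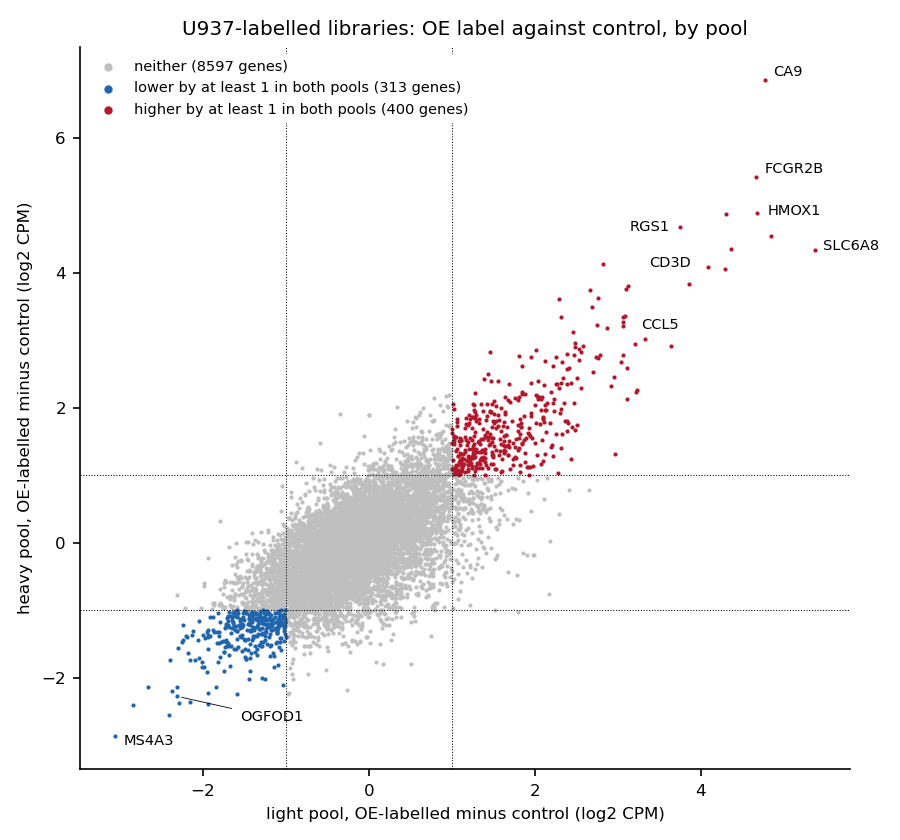
Log2 difference (OE-labelled minus control, CPM) of 9310 genes in the libraries labelled U937, light pool on the x axis and heavy pool on the y axis; each point is a gene, dotted lines mark 1 and -1, red points are the 400 genes higher and blue points the 313 genes lower in both pools. The red points reach 6.86 (CA9, heavy pool) and the blue points -3.05 (MS4A3, light pool), and OGFOD1 lies among the lowest.

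Hypoxia-inducible genes were higher in large part. Of 30 listed genes 23 were measured (the other 7 lay under 10 CPM), 14 were higher, 0 were lower, and the median difference over both pools was 1.61 against -0.12 for all genes. Where each genotype had to reach 10 CPM, 9 of 18 were higher. CA9 encodes a carbonic anhydrase that exports acid and is a classic HIF target. It was at 0.298 and 0.432 CPM under the control label (16 and 32 reads) and at 9.02 and 53.9 CPM under the OE label, 27.4-fold and 116-fold higher. Its log2 difference of 4.77 in the light pool (95% limits 4.20 to 5.74) and 6.86 in the heavy pool (6.46 to 7.51) was the largest in the heavy pool of the genes named here. The exons of CA9 overlap those of ARHGEF39, and reads of the 2 genes were not told apart by strand. ADM encodes adrenomedullin, a peptide that widens vessels. Levels of 0.392 and 1.24 CPM under the control label stood against 12.2 and 29.6 CPM under the OE label (log2 4.85 light, 4.54 heavy).

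HIF binds the core ACGTG or GCGTG. RefSeq promoters (GRCh38.p14, 250 bases before to 50 bases after the start of the gene) were searched for it on both strands, and 3 of the higher hypoxia genes are shown, with each match in capitals in either orientation, because they hold this core within the window. The windows are chr9:35673678-35673977, plus strand, for CA9, chr10:73096817-73097116, minus strand, for P4HA1, and chr10:131981874-131982173, minus strand, for BNIP3.
CA9: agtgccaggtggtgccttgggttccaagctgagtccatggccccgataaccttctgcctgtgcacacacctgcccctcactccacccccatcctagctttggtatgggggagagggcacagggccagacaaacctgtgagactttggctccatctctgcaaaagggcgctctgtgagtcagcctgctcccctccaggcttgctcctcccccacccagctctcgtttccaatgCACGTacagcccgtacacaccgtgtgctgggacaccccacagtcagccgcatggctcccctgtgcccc
P4HA1: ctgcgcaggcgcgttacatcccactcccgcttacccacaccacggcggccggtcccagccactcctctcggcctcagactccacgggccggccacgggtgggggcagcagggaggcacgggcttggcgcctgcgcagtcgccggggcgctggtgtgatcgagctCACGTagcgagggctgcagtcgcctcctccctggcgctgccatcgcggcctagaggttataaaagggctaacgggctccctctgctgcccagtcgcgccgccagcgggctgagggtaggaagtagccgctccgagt
BNIP3: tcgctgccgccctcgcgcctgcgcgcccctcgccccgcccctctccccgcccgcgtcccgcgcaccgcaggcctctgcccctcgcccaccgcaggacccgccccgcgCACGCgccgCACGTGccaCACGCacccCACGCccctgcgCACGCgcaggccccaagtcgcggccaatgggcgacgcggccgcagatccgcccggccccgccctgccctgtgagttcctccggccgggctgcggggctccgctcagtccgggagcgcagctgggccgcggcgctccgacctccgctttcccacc
The core begins 18 bases before the start in CA9 and 86 in P4HA1, and BNIP3 holds 6 matches, 2 of which overlap on opposite strands in CACGTG. Of the 14 higher hypoxia genes 9 had a promoter in the table and 8 of these held the core (88.9%). Among all measured members of the list with a promoter the share was the same, 16 of 18 (88.9%). The core is short and frequent: it stood in 48.4% of 27305 RefSeq promoters, in 66.3% of those of the measured genes, in 55.2% of those of the higher genes and in 74.8% of those of the lower genes. A match describes the letters only.

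P4HA1 encodes the catalytic subunit of a collagen prolyl hydroxylase, itself a 2-oxoglutarate oxygenase. It was at 24.0 and 30.3 CPM under the control label and at 133 and 209 CPM under the OE label. BNIP3, whose product marks mitochondria for removal, was at 55.8 and 63.2 CPM against 178 and 275 CPM, and its relative BNIP3L at 45.5 and 77.9 CPM against 160 and 348 CPM. NDRG1, a stress-induced gene known to respond strongly to hypoxia, went from 37.6 and 69.8 CPM under the control label to 212 and 523 CPM under the OE label. In each of these 4 genes both OE-labelled libraries lay above both control libraries. The other higher members were PFKFB4, VEGFA, SLC2A3, HILPDA, MXI1, BHLHE40, DDIT4 and KDM4B, with smaller differences of the pair at 1.17 (KDM4B) to 3.08 (PFKFB4). The 9 measured members that were not called included the glucose transporter gene SLC2A1 (0.57 light, 1.5 heavy), the HIF hydroxylase gene EGLN1 (0.05, 1.09) and ERO1A (-0.34, 0.48), which were picked out here after their values were seen.

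Glycolytic genes were split. Of 22 measured, 4 were higher, 1 was lower and the median was 0.46. Where each genotype had to reach 10 CPM, 3 of 21 were higher and 1 lower. The neuronal enolase gene ENO2 was at 1.21 and 1.26 CPM under the control label and at 24.4 and 21.4 CPM under the OE label (19.6-fold and 16.6-fold), and the aldolase gene ALDOC at 11 and 25.4 CPM against 94.5 and 344 CPM. The muscle-type aldolase gene ALDOA (1.92 light, 1.12 heavy) and the isomerase gene GPI (1.40, 1.26) were also higher. PFKFB4, which makes the activator of phosphofructokinase, was at 5.26 and 7.94 CPM against 44.9 and 81.9 CPM. PDHA1, a subunit of pyruvate dehydrogenase that links glycolysis to the mitochondrion, was lower (-1.39, -1.06), which library totals alone did not call. Enzymes at the end of the pathway such as LDHA (0.05, 0.49) and PKM (0.60, 0.67) were not called.

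HMOX1, which encodes haem oxygenase and responds to NRF2 and haem, was among the largest differences. It was at 0.373 and 1.26 CPM under the control label and at 10.4 and 38.0 CPM under the OE label, a log2 difference of 4.68 (95% limits 4.15 to 5.52) and 4.88 (4.62 to 5.23). Of 13 NRF2 genes measured 3 were higher, HMOX1 with FTH1, the heavy chain of the iron store ferritin, and the haem transporter gene SLC48A1 (1.40, 1.6), and the list's median was 0.11. With 10 CPM asked of each genotype, 2 of 11 were higher. FTH1 was at 638 and 152 CPM against 3453 and 781 CPM; BEST1 overlaps its exons, so its reads cannot be told from those of BEST1. SLC6A8, the creatine transporter gene, was at 1.03 and 1.62 CPM against 43.9 and 33.4 CPM. Its difference in the light pool, 5.38 (95% limits 5.03 to 5.83), was the largest there among the genes named by rule. TMEM158, a gene induced by RAS signalling, was at 1.68 and 0.607 CPM against 35.4 and 13 CPM, and the histone gene H2AC6, one of a multigene family whose reads can be shared, at 11.3 and 21.1 CPM against 98.4 and 297 CPM.

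**Figure D2:**
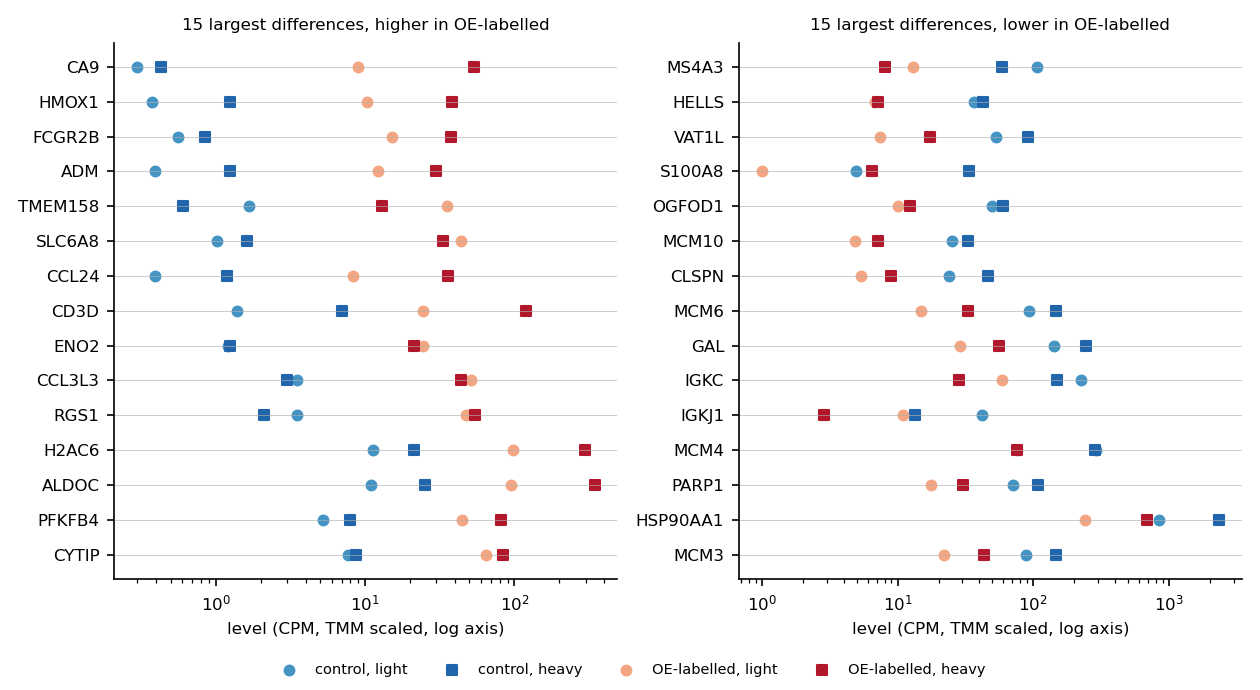
Level (CPM, log axis) in each of the 4 libraries labelled U937 of the 15 genes with the largest differences in each direction; circles are light pools, squares heavy pools, blue control and orange or red the OE label. In the left panel every OE-labelled point lies to the right of both control points, from CA9 (0.298 and 0.432 against 9.02 and 53.9 CPM) to CYTIP (7.74 and 8.65 against 64.9 and 84.1 CPM), and in the right panel the OE-labelled points lie to the left of the control point of the same pool.

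Genes of monocyte and macrophage surface receptors were higher in part. Of 44 listed genes 22 were measured, 12 were higher, 0 were lower and the median was 1.30. Some reached the minimum of 10 CPM through the OE-labelled libraries alone; where each genotype had to reach it, 7 of 16 were higher. FCGR2B encodes the inhibitory Fc receptor. Its level was 0.560 and 0.850 CPM under the control label and 15.1 and 37.6 CPM under the OE label (25.5-fold and 42.6-fold); the gene has near-identical neighbours, FCGR2A and FCGR2C, so its count is uncertain. The integrin gene ITGAX was at 2.56 and 1.85 CPM against 16.6 and 21.2 CPM, the lysosomal marker gene CD68 at 13.8 and 31.0 CPM against 64.6 and 192 CPM, and the T cell costimulator gene CD86 at 4.98 and 7.53 CPM against 18 and 35 CPM. In all 4 genes the OE-labelled libraries lay above both control libraries. CSF1R, the receptor for macrophage colony-stimulating factor, was at 6.66 and 9.50 CPM against 20.9 and 42.4 CPM. CD44, ITGAM, ITGB2, FCGRT, LILRB4, TREM2 and TYROBP made up the rest. The receptor gene CCR2 (0.05, 0.77) and the antigen gene CD33 (-0.11, 0.94) were not called, and CD14, CD163 and MRC1 lay under 10 CPM.

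Chemokine and inflammatory genes were higher in part. Of 15 NF-kB and inflammation genes measured 6 were higher and 0 lower, with a median of 0.76; where each genotype had to reach 10 CPM, 4 of 13 were higher. CCL5, a chemokine that draws T cells and monocytes, was at 71.7 and 108 CPM under the control label and at 721 and 873 CPM under the OE label (log2 3.33, 95% limits 3.28 to 3.38, and 3.02, 2.99 to 3.05). The NF-kB cofactor gene BCL3 (3.21, 2.94), the adhesion receptor gene ICAM1 (2.29, 3.61), TNF (1.68, 1.31), TNFAIP3 (1.33, 1.11) and TNIP1 (1.19, 1.44) were the others, and the subunit genes NFKB1 (0.24, 0.06) and RELA (0.21, 0.66) were not called. The eosinophil chemokine gene CCL24 was at 0.392 and 1.20 CPM against 8.35 and 36.2 CPM. CCL3L3, whose count is uncertain because it is a near-identical copy of CCL3, was at 3.49 and 3.02 CPM against 51.3 and 43.6 CPM. Of 6 measured regulators of G protein signalling, which shorten signals of chemokine receptors, RGS1 (3.75, 4.68), RGS2 (2.48, 2.97) and RGS16 (2.13, 2.05) were higher. With 10 CPM asked of each genotype, 1 of 4 was higher. CYTIP, which controls integrin adhesion in leukocytes, was at 7.74 and 8.65 CPM against 64.9 and 84.1 CPM.

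Genes known to brake cell division were higher in part. Of 12 measured BTG, TOB, YPEL and arrestin-domain genes 5 were higher and 0 lower, with a median of 0.94. Where each genotype had to reach 10 CPM, 2 of 8 were higher. BTG2, an antiproliferative gene induced by p53, was at 8.75 and 5.43 CPM under the control label and at 110 and 41.0 CPM under the OE label. YPEL3 (3.12, 2.59), the thioredoxin inhibitor gene TXNIP (1.83, 1.84) and ARRDC3 (1.81, 2.77) were higher with it. CDKN1A, which encodes the p21 inhibitor of cyclin-dependent kinases, was at 115 and 176 CPM against 489 and 793 CPM and was the 1 higher gene of 18 measured for cell cycle entry. CDC25A (-2.39, -1.74), a phosphatase that activates these kinases, and CCNE1 (-2.19, -1.40), the cyclin of the G1/S step, were the 2 lower ones. Both reached the minimum level through the control libraries: with 10 CPM asked of each genotype, 1 of 15 was higher and 0 lower. Over all measured genes the rule called 4.3% higher and 3.36% lower. TSC22D3, a gene of quiescent and glucocorticoid-treated cells, was at 29 and 57.3 CPM against 154 and 345 CPM. Of 14 immediate-early genes 5 were higher under TMM scaling and 3 under DESeq2 or upper-quartile factors, with IER3 (2.19, 2.23), DUSP6 (1.56, 2.40), IER5 (1.42, 1.57) and FOS (1.03, 1.03) among the 5. Of 14 BCL2 family genes 4 were higher, among them the survival gene BCL2A1 (2.53, 2.87) and the death-promoting gene BMF (1.38, 1.95). With 10 CPM asked of each genotype, 3 of 11 immediate-early and 3 of 13 BCL2 family genes were higher.

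Sterol, interferon and antigen presentation genes showed fewer calls. Of 26 measured genes of cholesterol synthesis 5 were higher and 21 were positive in both pools, with a median of 0.71. MSMO1 (1.47, 1.93), INSIG1 (1.12, 1.26), STARD4 (1.10, 1.55) and FDFT1 (1.05, 1.16) were among those higher. MYLIP, an LXR target whose product removes the LDL receptor, was also higher (2.26, 2.35). Of 47 interferon-induced genes 14 were measured and 3 were higher, IFI6 (2.46, 3.13), UBE2L6 (2.15, 2.07) and IRF7 (1.61, 1.44), with a median of 0.58. These 3 reached the minimum level through the OE-labelled libraries: where each genotype had to reach 10 CPM, 0 of 8 were higher. The other 33, including IFIT1, MX1 and OAS1, lay under 10 CPM. Of 14 MHC class I genes HLA-C (1.56, 1.73) and HLA-E (1.81, 1.56) were higher; HLA-C can share reads with the similar HLA genes. Of 22 ATF4 and stress response genes 5 were higher and the median was 0.12, with DDIT4 at 60.9 and 104 CPM against 220 and 493 CPM and the translation factor phosphatase gene PPP1R15A (1.66, 1.72) and the stress transcription factor gene DDIT3 (1.14, 1.32) among them. Exons of DDIT3 overlap those of MARS1 and MBD6.

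**Figure D3:**
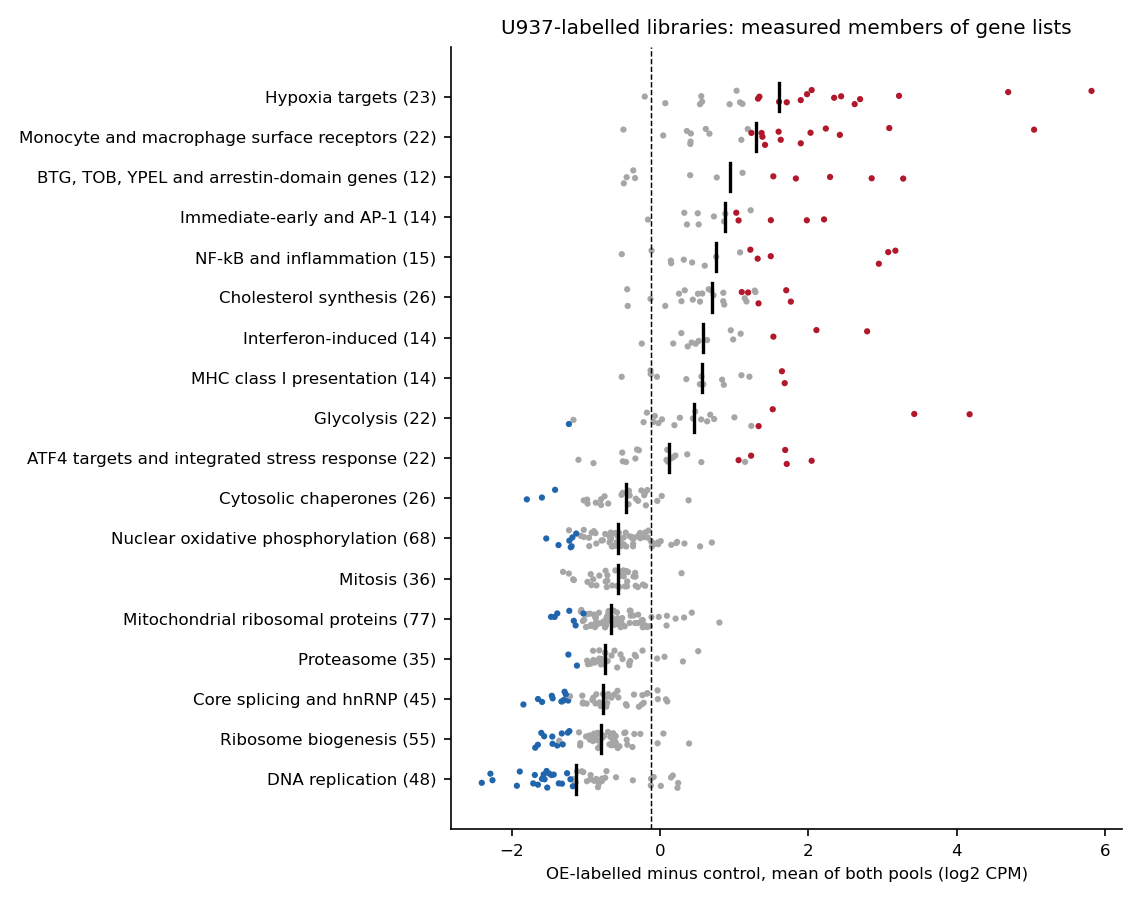
Log2 difference, mean of both pools, of the measured members of 18 gene lists in the libraries labelled U937; each point is a gene, red and blue mark genes higher or lower in both pools, black bars are list medians and the dashed line is the median of all 9310 genes (-0.12). The medians run from 1.61 (hypoxia targets) to -1.13 (DNA replication).

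DNA replication was the list with the most lower genes. Of 50 listed genes 48 were measured, 21 were lower, 0 were higher, 39 were negative in both pools, and the median was -1.13. Some reached the minimum of 10 CPM through the control libraries alone. Where each genotype had to reach it, 15 of 40 were lower. MCM6, a subunit of the replicative helicase, was at 93.6 and 147 CPM under the control label and at 14.8 and 33.2 CPM under the OE label (log2 -2.66, 95% limits -2.78 to -2.55, and -2.14, -2.21 to -2.08). Its partners MCM4, at 292 and 284 CPM against 76.0 and 75.3 CPM, and MCM3, at 88.0 and 147 CPM against 21.8 and 43.1 CPM, were lower with it, as was MCM2 (-1.57, -1.54), while MCM5 (-0.71, -1.52) and MCM7 (-0.52, -1.25) missed the size in the light pool. In MCM6, MCM4 and MCM3 both OE-labelled libraries lay below both control libraries. The initiation factor gene MCM10 (-2.37, -2.20) and CLSPN, which encodes the checkpoint mediator claspin (23.8 and 46.0 CPM against 5.34 and 8.90 CPM), were lower by similar amounts. PCNA, the sliding clamp, was at -2.11 in the light and -1.30 in the heavy pool. The origin recognition gene ORC1 (1.03, -0.54) and the licensing factor gene CDT1 (0.85, -0.38) differed in sign between pools.

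E2F sites were searched as TTTGGCGC, TTTCCCGC, TTTGCCGC and TTTCGCGC on both strands of the same windows, and 2 lower genes are shown because they hold such sites and were among the largest decreases. The windows are chr2:135876394-135876693, minus strand, for MCM6 and chr1:35769929-35770228, minus strand, for CLSPN, with the matches in capitals in either orientation.
MCM6: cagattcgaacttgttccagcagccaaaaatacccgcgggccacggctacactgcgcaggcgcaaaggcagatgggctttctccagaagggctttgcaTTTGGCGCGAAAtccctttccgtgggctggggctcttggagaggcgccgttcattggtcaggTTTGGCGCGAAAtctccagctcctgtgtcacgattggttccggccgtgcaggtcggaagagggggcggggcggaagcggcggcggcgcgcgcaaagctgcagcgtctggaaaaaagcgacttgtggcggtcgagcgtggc
CLSPN: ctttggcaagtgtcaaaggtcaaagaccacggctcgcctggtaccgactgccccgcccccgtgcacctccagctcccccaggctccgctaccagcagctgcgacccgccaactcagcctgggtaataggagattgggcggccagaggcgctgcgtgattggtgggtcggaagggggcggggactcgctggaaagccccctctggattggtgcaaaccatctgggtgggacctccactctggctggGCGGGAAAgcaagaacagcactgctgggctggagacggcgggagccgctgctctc
MCM6 holds a pair of sites, each made of overlapping matches on opposite strands, and the match in CLSPN begins 5 bases before the start. Of the 18 lower replication genes with a promoter 12 held a site (66.7%). Among all measured members of the list with a promoter it was 20 of 41 (48.8%). Such a site stood in 3.33% of all RefSeq promoters, 6.12% of those of the measured genes, 2.32% of those of the higher genes and 17.3% of those of the lower genes.

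Outside that list, genes of genome upkeep and lineage were among the largest decreases. HELLS, a chromatin remodeller of replicating cells, was at 36.5 and 42.3 CPM under the control label and at 6.84 and 7.15 CPM under the OE label, and the DNA break sensor gene PARP1 at 70.9 and 109 CPM against 17.6 and 30.4 CPM. MS4A3, a gene of granulocyte and monocyte progenitors, had the largest decrease in either pool of the genes named by rule, from 107 and 58.7 CPM to 12.9 and 8.03 CPM (-3.05, 95% limits -3.17 to -2.94, and -2.87, -2.99 to -2.75). S100A8, a subunit of the neutrophil protein calprotectin, was at 4.96 and 33.7 CPM against 0.992 and 6.46 CPM, and the neutrophil elastase gene ELANE at 422 and 2839 CPM against 177 and 1308 CPM. MS4A3 and ELANE were the 2 lower genes of 18 measured for granule proteins, whose median was -0.28; with library totals alone 1 was lower. The S100 genes S100A6 (1.23, 1.18) and S100A10 (1.12, 1.13) were higher. S100A8 and HELLS, and IGKJ1 below, had a mean under 10 CPM in the OE-labelled libraries and reached the minimum through the control libraries. With 10 CPM asked of each genotype, 2 of 4 S100 genes were higher and 0 lower. The neuropeptide gene GAL (-2.31, -2.14), VAT1L (-2.84, -2.41) and the immunoglobulin light chain segments IGKC (-1.94, -2.39) and IGKJ1 (-1.94, -2.22) completed the group; the last 2 lie at 1 locus and belong to a multigene family, so their counts are uncertain.

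Genes for making ribosomes, nucleotides and spliceosomes were lower in part. Of 55 measured ribosome biogenesis genes 11 were lower, 0 were higher and 50 were negative in both pools, with a median of -0.79. LYAR, a nucleolar growth factor, was at 29.4 and 81.0 CPM under the control label and at 8.77 and 26.4 CPM under the OE label. The nucleolar protein genes GAR1 (-1.81, -1.48), NOLC1 (-1.62, -1.58) and MRTO4 (-1.37, -1.52) were lower by similar amounts. Of 45 splicing and hnRNP genes 10 were lower, with a median of -0.77, among them HNRNPAB (185 and 481 CPM against 39.0 and 177 CPM), HNRNPA2B1 (-1.70, -1.48) and PRPF19 (-1.91, -1.38). Of 24 purine and pyrimidine synthesis genes CAD (-1.94, -1.39), PFAS (-1.38, -1.29) and TYMS (-1.47, -1.03) were lower. With 10 CPM asked of each genotype, 10 of 52 ribosome biogenesis, 9 of 44 splicing and 2 of 23 synthesis genes were lower. DANCR, a small nucleolar RNA host, was at 472 and 48.5 CPM against 124 and 16.3 CPM. Of 36 mitosis genes 34 were negative in both pools with a median of -0.56, yet 0 were called; DESeq2 or upper-quartile factors called 4.

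Chaperone, proteasome and mitochondrial genes lay lower with few calls, where 3.36% of all measured genes were called lower. HSP90AA1, the inducible cytosolic HSP90, was at 850 and 2345 CPM under the control label and at 240 and 689 CPM under the OE label (-1.82, 95% limits -1.85 to -1.79, and -1.77, -1.78 to -1.75). With it, CCT5 of the chaperonin ring (-1.71, -1.12) and the mitochondrial cochaperonin gene HSPE1 (-1.72, -1.47) were the 3 lower genes of 26 measured chaperones; HSPE1 shares exons with HSPD1 and its count is uncertain. Of 35 proteasome genes PSME2 (-1.27, -1.20) and PSMA7 (-1.06, -1.18) were lower, with a median of -0.74. With upper-quartile factors 1 was lower, and these few calls are no result about the proteasome list. Of 68 nuclear genes of oxidative phosphorylation 7 were lower, with a median of -0.56, and with library totals alone 4 were; the ATP synthase gene ATP5MC1 was at 136 and 820 CPM against 48.4 and 276 CPM. Of 77 mitochondrial ribosomal protein genes 7 were lower, with a median of -0.67 and MRPL41 (-1.51, -1.43) and MRPL11 (-1.40, -1.43) in front. The 13 mRNAs encoded in the mitochondrion had a median of -0.57 and 0 calls.

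The pools parted for mRNAs of ribosomal proteins and others of the translation machinery. Of 79 cytosolic ribosomal protein genes 1 was lower in both pools, RPL9 (-1.02, -1.05), which library totals or upper-quartile factors did not call. Their median difference was 0.07 in the light pool and -0.85 in the heavy pool, and the heavy difference was below the light one in 76 of 79 genes, against 3637 of all 9310 genes. They took 12% of counts in the control light library and 13.5% in the light library labelled OE, but 9.32% and 5.79% in the heavy libraries. Other mRNAs that begin with a terminal oligopyrimidine (TOP) tract, a sequence through which mTOR signals set translation, were at 0.53 in the light and -0.43 in the heavy pool by their medians, and 20 of 22 had the lower value in the heavy pool. EEF1A1, the elongation factor that brings aminoacyl-tRNA, was at 10736 and 2410 CPM under the control label and at 19471 and 2124 CPM under the OE label. Of 38 other initiation and termination genes EIF5B (109 and 154 CPM against 40.4 and 38.1 CPM) and EIF5A (-1.11, -1.32) were lower in both pools. Over all measured genes 3.36% were, so the few calls in these lists are no result about them. Cytosolic chaperone genes also had the lower value in the heavy pool in 21 of 26, by a median of -0.57. The opposite order was seen for genes of the endoplasmic reticulum stress response, whose heavy difference lay above the light one by a median of 0.60 in 20 genes, and for 34 lysosome genes, by 0.55; over all genes the median was 0.13. With 1 library per pool and genotype these differences between pools had no test.

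**Figure D4:**
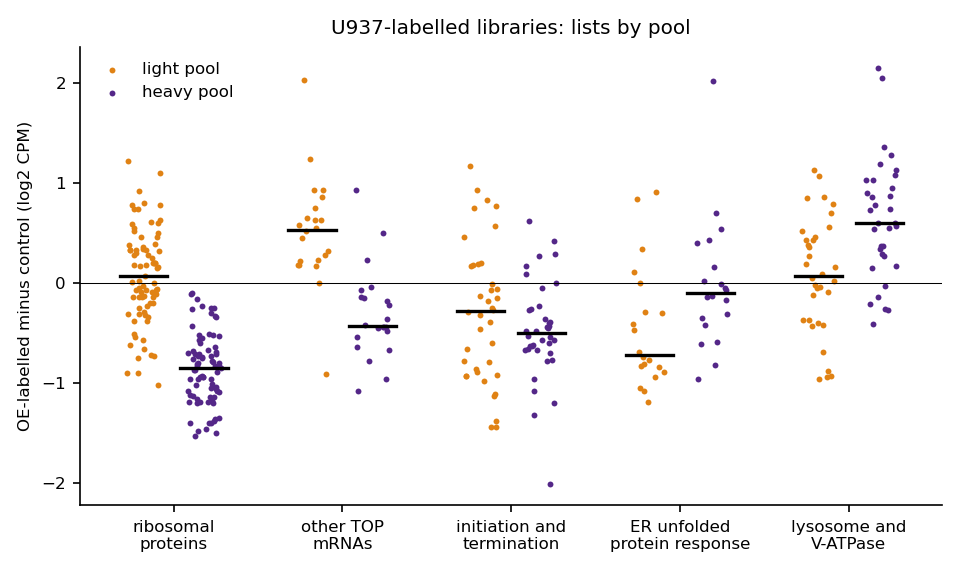
Log2 difference (OE-labelled minus control, CPM) of the members of 5 gene lists, light pool in orange and heavy pool in purple; each point is a gene and black bars are medians. Ribosomal protein mRNAs had medians of 0.07 (light) and -0.85 (heavy), and lysosome genes 0.07 and 0.60.

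Summed markers of lymphoid and stromal cells were higher under the OE label, mostly through a few genes, and those of erythroid cells and megakaryocytes were near 0. Of 11 lymphoid genes the 2 measured were both higher: CD3D, a subunit of the T cell receptor complex, was at 1.40 and 7.02 CPM under the control label and at 24.3 and 120 CPM under the OE label, and NKG7, a gene of cytotoxic cells, at 38.0 and 140 CPM against 87.2 and 393 CPM. The 11 genes summed to 40.1 and 149 CPM under the control label and to 114 and 519 CPM under the OE label. Nearly all of each sum came from NKG7 and CD3D, and 3 of the 11 were at 0 in all 4 libraries (MS4A1, CD22 and KLRD1). The 12 erythroid and megakaryocyte genes summed to at most 0.50 CPM in any of the 4 libraries, and HBG1, HBG2 and PPBP were among those at 0 in all of them. The 11 epithelial and stromal genes summed to 50.0 and 55.0 CPM against 78.7 and 123 CPM, mostly from PECAM1, which monocytic cells also express; COL3A1, DCN and CDH5 were at 0 throughout. The part of other cells in the results above was not tested.

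Under the Molm13 label far fewer genes met the rule: 41 of 9181 measured genes were higher, 0.447%, and 68 were lower, 0.741%. The 2 line labels share no library, and the difference between them was not tested. Of the 400 genes higher under the U937 label 383 were measured under the Molm13 label, and 362 of these (94.5%, against 51.1% of all genes) were positive in the Molm13 heavy pool but 171 (44.6%, against 37.9%) in its light pool, the pool whose control library stood apart. Of the 313 lower genes 293 were measured, and 269 (91.8%, against 62.1%) were negative in the Molm13 light and 253 (86.3%, against 48.9%) in the heavy pool. Genes called alike under both labels numbered 18 of the higher ones, 4.5% of the U937 calls and 43.9% of the Molm13 calls, and 27 of the lower ones, 8.63% and 39.7%. Among these were RGS1, BTG2, ARRDC3, MYLIP, FTH1 and ITGAM on the higher side and MCM3, MCM6, MCM10, CLSPN, PARP1, HNRNPAB and CAD on the lower side. No gene was called in opposite directions. For hypoxia targets the median was -0.01 in the Molm13 light and 0.79 in the Molm13 heavy pool, where the U937 pools had 1.47 and 1.79, and for replication genes it was -0.78 and -0.77. CA9 was at -1.72 in the Molm13 light and 2.57 in the Molm13 heavy pool, and OGFOD1 at -0.99 and -0.81. Some genes higher under the U937 label already stood higher in the Molm13 control libraries than in the U937 ones. PFKFB4, for example, was at 53.1 and 54.8 CPM against 5.26 and 7.94 CPM. The number of such genes was not counted.

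**Figure D5:**
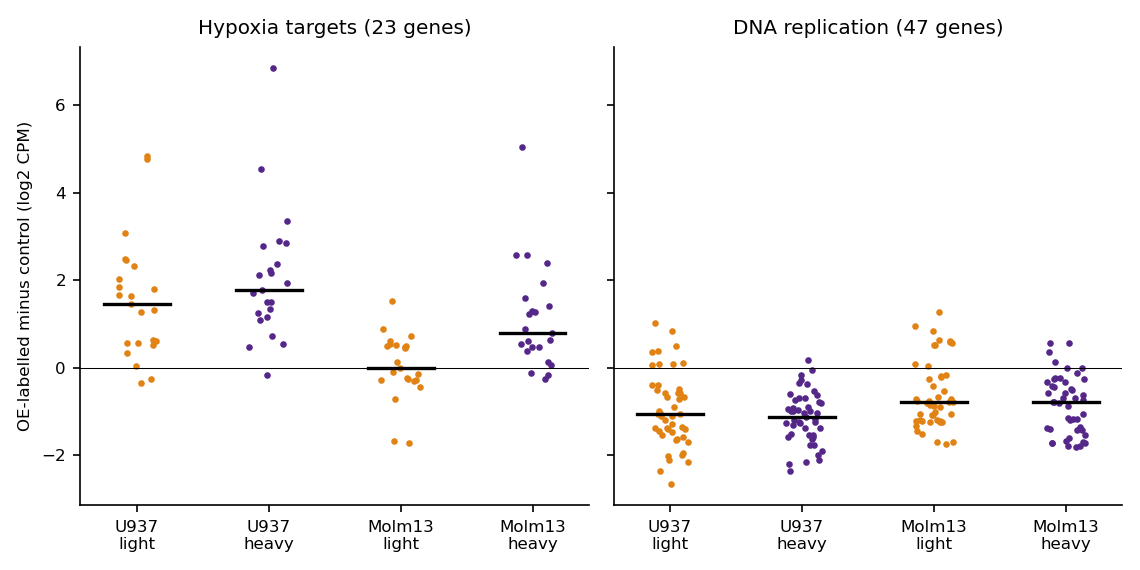
Log2 difference (OE-labelled minus control, CPM) of hypoxia targets (23 genes, left) and DNA replication genes (47 genes measured under both labels, right) in the light (orange) and heavy (purple) pools of libraries labelled U937 and Molm13; each point is a gene and black bars are medians. Hypoxia targets had medians of 1.47 and 1.79 in the U937 pools and -0.01 and 0.79 in the Molm13 pools.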

How the data were processed

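Per the labels' protocols, pooled gradient fractions gave Smart-seq libraries; the submitters' processing notes name GRCh38, cutadapt, STAR and featureCounts. Not given in the sources used here were tool versions, the annotation release and strandedness. As deposited, the authors' table holds raw counts, whole reads per gene, for 78932 Ensembl IDs (42179 matched a symbol). TALAM1 held at least 99.9% as many counts as its antisense partner MALAT1, so overlapping genes share reads. Positions and overlaps come from GENCODE release 29, on GRCh38. Differences are log2 CPM computed here with edgeR 4.0.16 (R 4.3.3; filterByExpr, TMM over 8 libraries, prior count 2). Named were OGFOD1, RPS23, the 15 genes with a symbol and the largest smaller pair difference in each direction, and up to 4 called members per direction of each list (of 46), or else up to 2 by mean level. Members and lists were chosen with earlier results of these data known. On simulated U937 counts the rule recovered 99% of 100 genes changed 4-fold (95% changed 3-fold) and called 0 unchanged genes among 8926. The changed genes were drawn only from those well above the minimum level in the control libraries, so genes of low control level were not covered. The spread between libraries was assumed, since none between cultures could be measured, and these figures depend on it. DESeq2 1.42.0 and edgeR's quasi-likelihood test served as alternatives only.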

Additional observations from a re-analysis of the deposited data

Results flagged for a closer look

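3 genes named above differed the opposite way under the 2 line labels, in both pools of each; the difference was not tested, and each label holds 1 library per pool and genotype. DDIT3, a transcription factor gene of the integrated stress response, was higher by 1.23 (mean of both pools, log2) under the U937 label and at -0.39 under the Molm13 label (-0.35 light, -0.43 heavy). DUSP6, a phosphatase that limits ERK signalling, was at 1.98 against -0.18 (-0.03 light, -0.33 heavy). KDM4B, a histone demethylase gene of the 2-oxoglutarate oxygenase family, was at 1.32 against -0.28 (-0.30 light, -0.26 heavy).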

How the results depend on the processing

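Each difference paired the libraries of 1 pool; the samples carry no replicate number to pair further. The genes higher in both pools (400) and genes lower in both pools (313) became, in this order, 1051 and 553 with a minimum mean of 1 CPM, 185 and 201 with 30 CPM, 2558 and 1437 with no filter, 81 and 9 with a size of 2, 633 and 910 from the light pair alone, 712 and 627 from the heavy pair alone, 650 and 523 with the pools summed, and 177 and 82 where OE-labelled libraries had to lie beyond both control libraries by 1. Library totals gave 199 lower. With the pools of a gradient counted as replicates, edgeR, with pool as a block, called 2518 higher and 2087 lower of 22625 (adjusted p threshold 0.05, 1 residual degree of freedom), and DESeq2 1881 and 2032. The edgeR calls held all 400 and all 313, but these were picked from the same libraries by their size in both pools. That overlap is therefore no separate support. Of 2 alternatives chosen after seeing the data, asking for 10 CPM in each genotype left 247 higher. The other counts lay within 1.5 times. Of 1989 values of 117 called named genes 0 changed sign. The rule fixed this in advance for either pair alone, and other filters or sizes leave a gene's value as it was. Of 16 uncalled genes, 6 changed sign (10 values, 6 of them from 1 pool alone: RPS23 became -0.67, EEF1A1 -0.18, PABPC1 -0.14, MT-CO3 0.09 and OIP5-AS1 0.05 in the heavy pair, CANX 0.11 in the light). Of all 2261 values 345 moved beyond the counting limits. Smallest control levels (CA9, 16 reads) had the widest limits.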

Other observations

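Further genes outside the lists were called higher; they were chosen after their values were seen and are given as values with no test. MT2A, a metallothionein that binds zinc and copper, was at 124 and 172 CPM (light, heavy) under the control label and at 839 and 1147 CPM under the OE label, and MT1X at 131 and 348 CPM against 447 and 839 CPM. MT1G (-0.27 light, -0.65 heavy) and MT1F (-0.37, -0.74), of the same family, were not called; the copies are similar in sequence and their counts are uncertain. Among histone genes, H2BC5 was at 1.18 and 5.05 CPM against 9.34 and 27.8 CPM, while the variant histone gene H2AZ1 was lower (-1.92, -1.10). PLIN2, which coats lipid droplets, was higher (2.87, 3.19), as were the receptor tyrosine kinase gene AXL (2.66, 3.75) and SAT1, which breaks down polyamines (1.26, 1.44).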
